A study of Mus musculus with 48 samples.

Results

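The response to the open field was followed in the hippocampal CA tissue of Glu-CB1-KO mice, by comparing 7 libraries from mice exposed to the arena with 7 libraries from mice in the basal state, over every gene expressed strongly enough to be tested. These 14 libraries, each from 1 mouse, were all the libraries of this genotype among the 48 of the series and were taken by their labels. All mice were males of the Glu-CB1 line, given an age of 8 weeks in the labels and of 8 to 10 weeks in the study's methods. Both alleles of the CB1 gene were floxed, and Cre recombinase was expressed from Nex regulatory elements, which are active in glutamatergic neurons of the dorsal telencephalon. CB1 therefore remained in interneurons, glia and other cells of the tissue, in both states. Open field mice spent 5 min in the arena and their tissue was taken an hour later, whereas basal mice came straight from the home cage. The dentate gyrus was removed before the CA region was frozen. Wild-type littermates (Glu-CB1-WT, 5 basal and 5 open field libraries) and GABA-CB1-KO mice, which carry the same floxed allele with Cre driven by Dlx5/6 elements in GABAergic neurons (6 basal and 5 open field libraries), were used for comparison only. For the open field, the study's text gives 7 GABA-CB1-KO mice and 5 wild types of that line. The labels give 5 and 7, and the labels were followed. The study had selected the mice for sequencing by the purity of the tissue, by behaviour and by neuronal activity, which it followed through *Arc* mRNA. Levels and differences of *Arc* and of genes that move with it are therefore not independent of that selection.

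Between 28176051 and 33875879 reads were counted on genes in the 14 Glu-CB1-KO libraries, and levels are given as CPM, the count scaled to library size with TMM factors. *Cnr1*, the gene of CB1, lay between 205 and 250 CPM in the Glu-CB1-KO libraries of both states and between 329 and 411 CPM in the Glu-CB1-WT libraries, so the targeted gene separated the genotypes as labelled. *Cnr1* did not pass the test for a difference between states (log2 difference −0.04, standard error (SE) 0.05, adjusted p = 0.850, edgeR's quasi-likelihood test). *Neurod6*, the gene also called Nex, gave 198 to 258 CPM in basal and 198 to 238 CPM in open field Glu-CB1-KO libraries (log2 difference −0.08, adjusted p = 0.692). Its level was higher in Glu-CB1-WT libraries, at 305 to 387 CPM in basal and 338 to 400 CPM in open field mice. In 4 of the 14 libraries, *Ttr* or *Gh*, transcripts best known from other tissue, were high. *Ttr*, a transcript of the choroid plexus, reached 556 CPM in basal replicate 6 and 236 CPM in open field replicate 4. *Gh*, a transcript best known from the pituitary, reached 161 CPM in basal replicate 7 and 101 CPM in open field replicate 7. These 4 values are CPM without TMM factors, and the cut-offs that picked the 4 libraries were set after the data had been seen. The source of these transcripts was not tested. Several counts and calls are also given without these 4 libraries. The labels also give animal numbers in 3 ranges, which held 3, 2 and 2 of the basal and 4, 2 and 1 of the open field libraries. What the ranges stand for (litters, cohorts or order of delivery) is not stated. All basal libraries of the line had lower library numbers than all its open field libraries. The labels do not say what these numbers stand for, and the study's methods state that libraries of all groups were sequenced in pools of 12. Anything that follows the numbers cannot be told apart from the state.

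Exploring a new place activates hippocampal pyramidal neurons, and calcium entry and kinase signalling then switch on immediate early genes within minutes, without new protein synthesis. Many of these genes encode transcription factors of the Fos/Jun, Egr and Nr4a families, others encode synaptic effectors such as Arc or phosphatases that turn the signal off. A new environment is also a mild stressor that releases corticosterone, which acts through the glucocorticoid receptor on a second, partly overlapping group of genes. CB1 on the terminals of glutamatergic neurons lowers glutamate release when endocannabinoids are made by the active postsynaptic cell.

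Few genes were called in the open field response of Glu-CB1-KO mice, a count that does not measure how many genes responded. Of 15021 genes tested, 8 rose (0.0533% of the genes tested) and 3 fell (0.02%) at an adjusted p-value under 0.05. The 8 were the immediate early transcription factor genes *Egr2*, *Fos*, *Fosb*, *Egr4* and *Egr1*, together with *Errfi1*, *Dio2* and *Aff1*, and the 3 were *Heyl*, *Klf11* and *P2ry13*. Their changes ran from a 4.69-fold rise of *Egr2* to a fall of *Heyl* to 0.718 of its basal level. TMM scaling centres the differences, and under it 7297 genes (48.6%) were higher after the open field, at a median log2 difference of −0.0023. At an unadjusted p under 0.05, 971 genes were higher (6.46%) and 598 lower (3.98%). The 7 open field libraries lay outside the range of the 7 basal libraries for 29 genes above it (0.193%) and 12 genes below it (0.0799%), and 8 of the 11 genes called were among these 41. The number of genes called depended on single libraries. It was 110 without basal replicate 3, 4 without basal replicate 1, 2 or 7 or open field replicate 5, 5 without basal replicate 4 or 6 or open field replicate 2, 4 or 6, and 7 without open field replicate 7. DESeq2, the tool of the study, called 172 of the 13564 genes to which it gave an adjusted p (1.27%), all 11 genes among them. Of the 172, 129 were higher. Genes said to be called below are those of edgeR, unless another tool is named. Without the 4 libraries high in choroid plexus or pituitary transcripts 10 libraries remained. Only *Fos* and *Egr2* were called there, and 589 genes were higher and 451 lower at an unadjusted p under 0.05. The other genes called kept their direction. Their log2 differences were 1.35 for *Fosb*, 0.77 for *Egr4*, 0.66 for *Egr1*, 0.46 for *Errfi1*, 0.35 for *Dio2* and 0.22 for *Aff1*. Those of *Heyl*, *Klf11* and *P2ry13* were −0.49, −0.40 and −0.28.

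**Figure D1:**
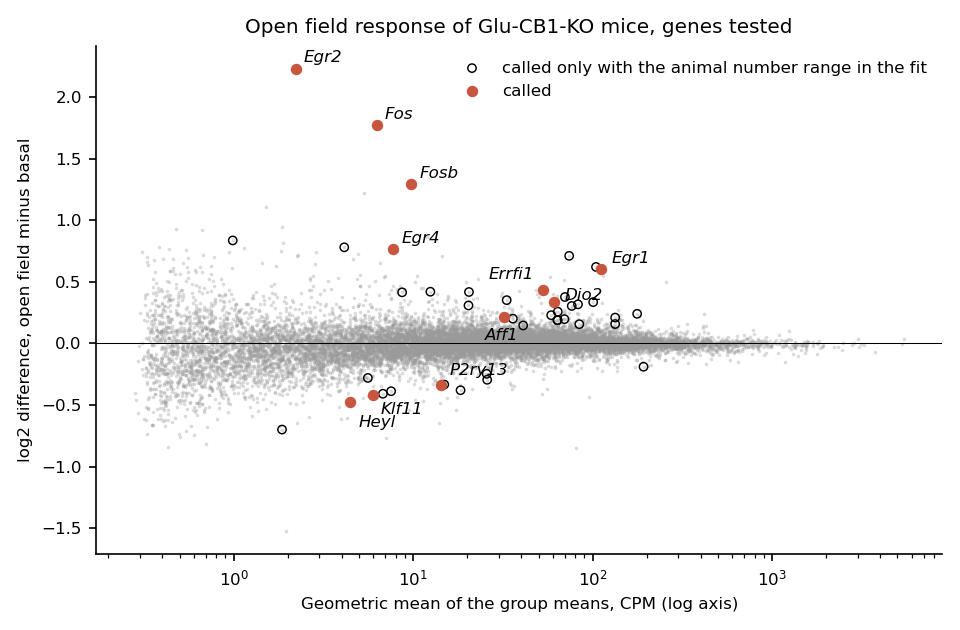
Log2 difference of each gene, open field minus basal, in Glu-CB1-KO libraries (vertical axis) against mean level in CPM (horizontal axis, log scale), with 1 point per gene tested. The 11 genes called are named and coloured, and the 33 genes called only when the animal number range was in the fit are marked separately. Most genes lie close to 0 and *Egr2*, *Fos* and *Fosb* stand highest.

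The gene positions given here are those of the count table, in mm10. *Egr2* (chr10:67537869-67542188, plus strand), a zinc finger transcription factor of the Egr family, showed the highest fold of the genes called. Its basal libraries ran from 0.412 to 1.43 CPM with a median of 1.10, and its open field libraries from 3.28 to 6.95 CPM with a median of 4.05. All 7 open field libraries lay above all basal ones, and replicates 1, 4 and 6 were the highest, at 6.50, 6.07 and 6.95 CPM. The log2 difference was 2.23 (SE 0.24, adjusted p = 4.09e-04, edgeR), and 2.62, 2.16 and 1.28 within the 3 animal number ranges. *Fos* (chr12:85473901-85477270, plus strand), a partner of Jun proteins in the AP-1 dimer, went from 2.73 to 4.42 CPM in basal libraries (median 3.26) to between 8.00 and 17.04 CPM after the open field (median 9.08). Its groups did not overlap either, and the same replicates 1, 4 and 6 were highest, at 14.1, 17.04 and 15.4 CPM. The log2 difference was 1.77, a 3.41-fold rise (SE 0.19, adjusted p = 4.09e-04, edgeR). *Fosb* (chr7:19302696-19310045, minus strand), the Fos family member whose truncated product accumulates with repeated activity, ran from 5.29 to 8.12 CPM in basal (median 5.85) and from 11.2 to 24.6 CPM in open field libraries (median 12.9). Again no library overlapped, and open field replicate 6 was the highest. *Fosb* rose 2.45-fold (log2 difference 1.29, SE 0.16, adjusted p = 0.00206, edgeR), and its splice forms cannot be told apart in counts per gene.

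*Egr4* (chr6:85511122-85513542, minus strand), a further Egr family gene, rose 1.70-fold, from 4.18 to 6.94 CPM in the basal state (median 6.01) to 8.60 to 12.6 CPM (median 9.49). The groups did not overlap, and the log2 difference was 0.77 (SE 0.10, adjusted p = 0.00444, edgeR). *Egr1* (chr18:34861207-34864956, plus strand), widely used as a marker of neuronal activity, gave 77.2 to 113 CPM in basal libraries (median 92.2) and 112 to 170 CPM after the open field (median 141). Here 6 of 7 open field libraries exceeded every basal library, and only open field replicate 3, at 112 CPM, lay just under basal replicate 6, at 113 CPM. *Egr1* rose 1.52-fold (log2 difference 0.61, SE 0.10, adjusted p = 0.0216, edgeR). *Fos*, *Egr2*, *Fosb* and *Egr4* were called with each of the 14 libraries left out in turn. *Egr1* was called in 7 of these 14 fits and was lost without basal replicate 1, 2, 4 or 7 or open field replicate 4, 5 or 6, with an adjusted p of at most 0.0661.

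**Figure D2:**
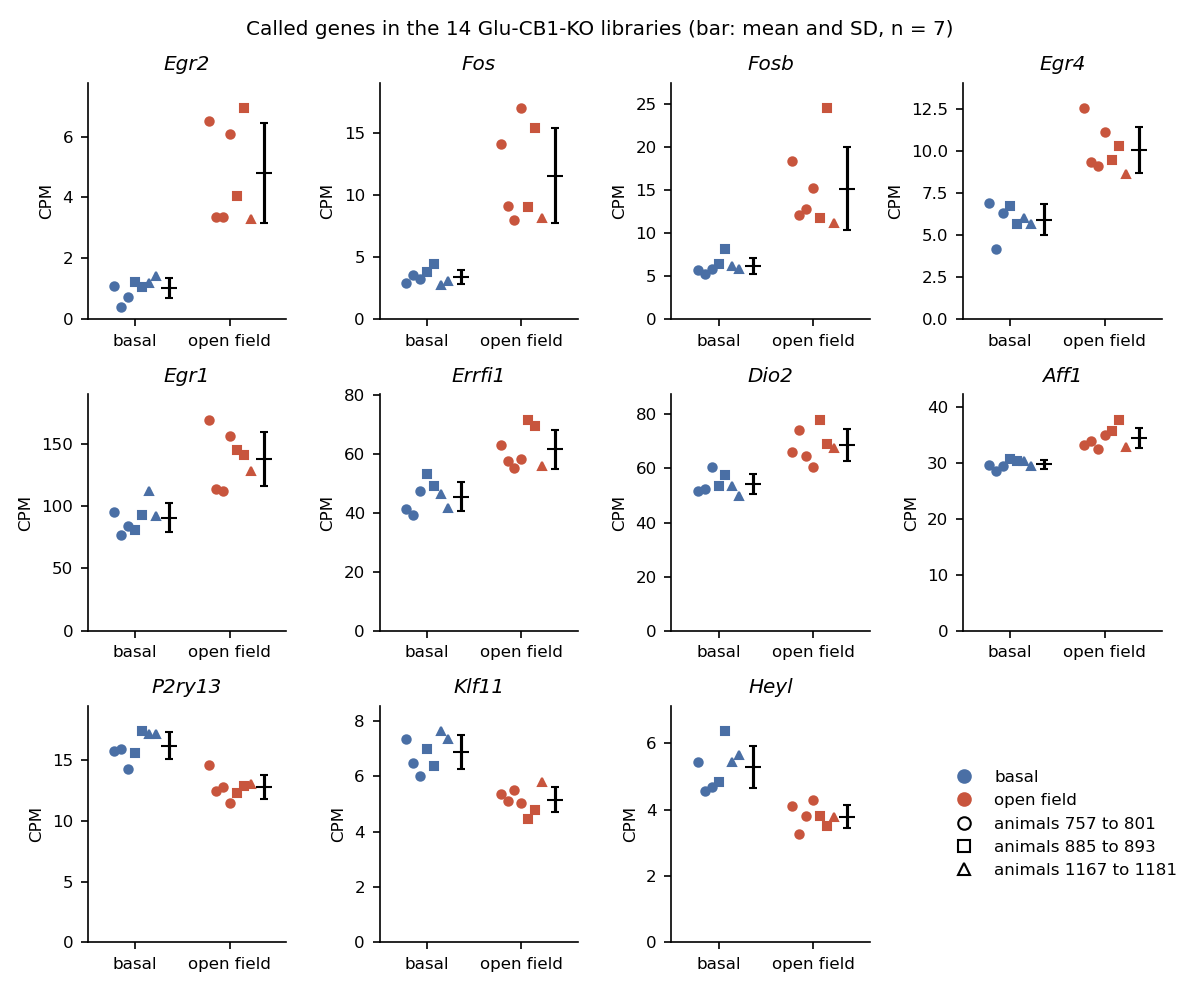
Level of each of the 11 genes called, in CPM, in each of the 7 basal and 7 open field Glu-CB1-KO libraries, with mean ± SD beside the points; colour gives the state and the marker gives the animal number range. The groups overlap for *Egr1*, *Dio2* and *P2ry13* and are separate for the other genes.

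The Egr and Fos genes are textbook targets of serum response factor, which binds CArG boxes, and of CREB, which binds the cAMP response element (CRE), in DNA close to their starts. The 250 bases before the start of the 4 genes with the largest rises are therefore shown. They were taken from RefSeq for the mouse assembly GRCm38.p6, the source of mm10, with *Egr2* at chr10:67537619-67537868 on the plus strand, *Fos* at chr12:85473640-85473889 on the plus strand, *Fosb* at chr7:19310046-19310295 on the minus strand and *Egr4* at chr6:85513590-85513839 on the minus strand. These starts are those of RefSeq. They coincide with the starts in the count table for *Egr2* and *Fosb* and lie 11 bases from it for *Fos* and 47 bases for *Egr4*. Capitals mark a CArG box, which only the *Egr2* sequence held in the exact form searched.

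Egr2: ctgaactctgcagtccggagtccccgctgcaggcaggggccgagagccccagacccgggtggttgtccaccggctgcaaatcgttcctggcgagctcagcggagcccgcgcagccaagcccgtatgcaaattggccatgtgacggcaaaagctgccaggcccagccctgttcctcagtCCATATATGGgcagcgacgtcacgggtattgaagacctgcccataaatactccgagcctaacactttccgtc
Fos: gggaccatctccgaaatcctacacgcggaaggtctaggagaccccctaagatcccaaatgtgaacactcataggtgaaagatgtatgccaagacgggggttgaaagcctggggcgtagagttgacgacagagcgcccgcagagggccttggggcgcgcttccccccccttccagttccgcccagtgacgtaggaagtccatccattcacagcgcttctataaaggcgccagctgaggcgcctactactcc
Fosb: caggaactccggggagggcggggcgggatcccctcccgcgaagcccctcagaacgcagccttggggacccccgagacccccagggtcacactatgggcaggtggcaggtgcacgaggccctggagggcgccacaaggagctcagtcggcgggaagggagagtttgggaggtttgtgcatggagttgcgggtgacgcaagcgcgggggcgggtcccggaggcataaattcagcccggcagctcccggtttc
Egr4: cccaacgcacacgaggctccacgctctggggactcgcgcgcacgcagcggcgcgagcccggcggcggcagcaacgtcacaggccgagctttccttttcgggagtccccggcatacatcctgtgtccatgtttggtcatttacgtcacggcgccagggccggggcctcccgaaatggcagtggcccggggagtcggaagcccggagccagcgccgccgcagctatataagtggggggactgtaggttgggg

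In *Egr2* this CArG box, CCATATATGG, lay between 63 and 72 bases before the start. Both strands were searched for the CRE (TGACGTCA), the AP-1 site (TGANTCA), the CArG box (CC, then 6 bases of A or T, then GG), the E-box (CACGTG) and the EGR site (GCGTGGGCG). Of 17216 promoters of genes in the count table, 2.05% held the CRE, 6.42% the AP-1 site, 1.32% the CArG box, 6.88% the E-box and 0.709% the EGR site. Among the 11341 of genes tested, these shares were 2.66%, 4.17%, 1.15%, 8.27% and 0.988%. An entry was found for 7 of the 8 genes that rose, and among them the CRE occurred before *Dio2* and *Errfi1* and the CArG box before *Egr2*. Of the immediate early transcription factors, 23 had an entry, with the CRE before *Btg2*, the CArG box before *Egr2* and *Srf*, and the E-box before 3 genes. A match is a stretch of letters in this window, and binding was not measured.

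The other 3 genes that rose are of different kinds. *Errfi1* (chr4:150855091-150868880, plus strand) encodes an inhibitor of the epidermal growth factor receptor and is induced both by growth factor signalling and by glucocorticoids. It went from 39.2 to 53.0 CPM (median 46.3) to 55.2 to 71.6 CPM (median 58.1) without overlap, a 1.35-fold rise (log2 difference 0.44, SE 0.07, adjusted p = 0.0318, edgeR). *Dio2* (chr12:90724552-90738438, minus strand), the enzyme that turns thyroxine into active thyroid hormone and is made in astrocytes, had 49.8 to 60.7 CPM in basal (median 53.4) and 60.4 to 78.1 CPM in open field libraries (median 67.4). All but open field replicate 4, at 60.4 CPM, exceeded the highest basal library. *Dio2* rose 1.27-fold (log2 difference 0.34, SE 0.06, adjusted p = 0.0289, edgeR). *Aff1* (chr5:103754162-103855322, plus strand), a scaffold of the super elongation complex that releases paused RNA polymerase, had narrow groups of 28.5 to 30.8 CPM (median 29.6) and 32.5 to 37.8 CPM (median 34.03). These did not overlap, and the 1.16-fold rise (log2 difference 0.21, SE 0.04, adjusted p = 0.0405, edgeR) was the smallest of the genes called.

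Of the 3 genes that fell, *Heyl* (chr4:123233556-123249870, plus strand) encodes a basic helix-loop-helix repressor downstream of Notch. Its basal libraries ran from 4.56 to 6.36 CPM (median 5.42) and its open field libraries from 3.26 to 4.27 CPM (median 3.79), without overlap. The log2 difference was −0.48 (SE 0.09, adjusted p = 0.0469, edgeR). *Klf11* (chr12:24651371-24662782, plus strand), a Krüppel-like repressor, went from between 6.01 and 7.63 CPM (median 7.00) to between 4.45 and 5.79 CPM (median 5.11), again without overlap (log2 difference −0.42, SE 0.07, adjusted p = 0.0405). *P2ry13* (chr3:59207894-59210882, minus strand), a purinergic receptor of microglia, had 14.3 to 17.4 CPM in basal (median 15.9) and 11.5 to 14.6 CPM in open field libraries (median 12.8). Here 6 of 7 open field libraries were below every basal library, and the log2 difference was −0.34 (SE 0.06, adjusted p = 0.0318).

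These 6 calls were closer to the threshold than those of the 4 leading genes. With 1 library left out at a time, *Errfi1* was called in 5 of 14 fits (those without basal replicate 3, 4 or 5 or open field replicate 3 or 7) and *Dio2* in 5 (without basal replicate 3 or 5 or open field replicate 1, 3 or 4). *Klf11* was called in 4 (without basal replicate 3 or 5 or open field replicate 3 or 7), *P2ry13* in 3 (without basal replicate 3 or open field replicate 1 or 3), *Aff1* in 2 (without basal or open field replicate 3) and *Heyl* in 1 (without basal replicate 3). In the other fits their calls were lost, and the adjusted p from edgeR reached 0.126 for *Errfi1*, 0.0935 for *Dio2*, 0.133 for *Klf11*, 0.114 for *P2ry13*, 0.134 for *Aff1* and 0.147 for *Heyl*. The directions were the same in all 14 fits, and within each of the 3 animal number ranges for all 11 genes called.

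*Arc* (chr15:74669081-74672570, minus strand), the cytoskeletal effector by which the study monitored activity, did not pass the test across all genes. Its basal libraries ran from 79.3 to 120.5 CPM (median 91.2) and its open field libraries from 77.0 to 217 CPM (median 135). Of the open field libraries, 5 were above all basal ones, and replicate 3, at 77.0 CPM, was below all of them. The log2 difference was 0.55 (SE 0.17, adjusted p = 0.216, edgeR). Open field replicate 3 also had the lowest *Fos* and *Egr1* of its group, whereas replicate 4 had the highest *Arc* and *Fos*.

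Most immediate early transcription factor genes were higher after the open field, beyond the 5 that edgeR called, and DESeq2 called 7 of them higher. This list and those that follow were drawn up with earlier results of these data known, so their counts are a description. Of the 29 tested, 23 were higher after the open field, 17 had an unadjusted p under 0.05 in that direction (58.6%, against 6.46% of all genes tested) and none in the other, and the median log2 difference was 0.20. Without the 4 libraries high in choroid plexus or pituitary transcripts, 23 were again higher, 15 had an unadjusted p under 0.05 upward and the median was 0.29. *Junb*, another component of AP-1, went from 14.01 to 19.95 CPM (median 16.04) to 16.5 to 31.2 CPM (median 23.5), with a log2 difference of 0.50 (adjusted p = 0.109). The orphan nuclear receptor genes *Nr4a1* and *Nr4a2* gave 0.40 (adjusted p = 0.149) and 0.43 (adjusted p = 0.196), and *Fosl2* gave 0.54 (adjusted p = 0.124). *Npas4*, which is induced by calcium entry in neurons and little by other stimuli, had 8.12 to 12.8 CPM in basal and 11.3 to 17.4 CPM in open field libraries (log2 difference 0.33, adjusted p = 0.227). *Egr3* differed by 0.20 (adjusted p = 0.290), so that within the Egr family the log2 differences ran from 0.20 to 2.23.

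None of the activity-regulated effector genes was called by edgeR, whereas DESeq2 called 6 of them higher. Of the 39 tested, 29 were higher, 13 had an unadjusted p under 0.05 upward (33.3%) and 1 downward, and the median log2 difference was 0.07. When the 4 libraries were left out, 34 were higher and 9 had an unadjusted p under 0.05 upward. *Sik1*, a kinase that curbs CREB coactivators, gave 5.52 to 7.94 CPM in basal and 8.38 to 12.2 CPM in open field libraries. These groups did not overlap, and the adjusted p was 0.0857 for a log2 difference of 0.47. *Per1*, a clock gene that is also induced by activity and glucocorticoids, gave 0.38 (adjusted p = 0.0948), and *Tiparp* gave 0.28 (adjusted p = 0.0980). With DESeq2 the adjusted p was 0.00279 for *Sik1*, 0.00706 for *Per1* and 0.0125 for *Tiparp*. *Bdnf* and *Homer1*, which encode a neurotrophin and a synaptic scaffold, had log2 differences of −0.05 (adjusted p = 0.900) and 0.12 (adjusted p = 0.755), with all transcripts of each gene counted together. Of the 8 neurotrophin and receptor genes tested, 3 were higher and none was called.

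Inhibitors that feed back on MAPK signalling had *Errfi1* as their member called by edgeR, and DESeq2 called 4 of them higher. Of the 15 tested, 10 were higher, 5 had an unadjusted p under 0.05 upward and 1 downward, and the median log2 difference was 0.02. *Dusp5*, a nuclear phosphatase of ERK, gave a log2 difference of 0.44 (adjusted p = 0.107). The values were 0.27 for *Spry4* (adjusted p = 0.167), 0.22 for *Spred1* (adjusted p = 0.136) and 0.24 for *Dusp6* (adjusted p = 0.288).

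**Figure D3:**
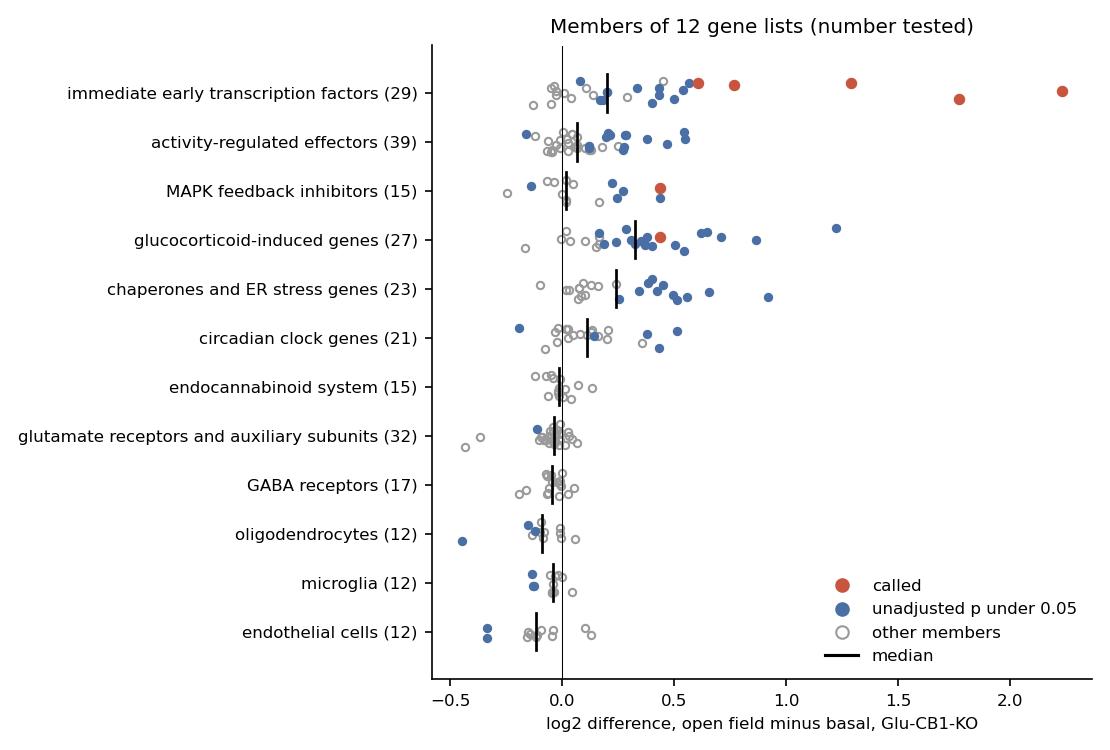
Log2 difference, open field minus basal, in Glu-CB1-KO libraries (horizontal axis) for the members of 12 gene lists (vertical axis), with 1 point per gene tested and the median of each list. Immediate early transcription factors, glucocorticoid-induced genes and chaperones have medians of 0.20, 0.33 and 0.24, and glutamate receptors a median of −0.04.

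Most genes known to be induced by glucocorticoids were higher after the open field. Of 27 tested, 25 were higher after the open field, 19 had an unadjusted p under 0.05 upward (70.4%) and none downward, and the median log2 difference was 0.33. *Errfi1*, which is also a MAPK feedback inhibitor, was the member called by edgeR, and DESeq2 called 8 members higher. With the 4 libraries left out, 24 were higher, 15 had an unadjusted p under 0.05 upward (55.6%), the median was 0.28 and *Errfi1* was not called (adjusted p = 0.4925, edgeR). *Sgk1*, a kinase that regulates ion channels and is a classical glucocorticoid target, ran from 69.6 to 112 CPM in basal (median 79.9) and from 93.0 to 188 CPM in open field libraries (median 126). The groups overlapped, with 5 open field libraries above all basal ones, and the log2 difference was 0.62 (SE 0.14, adjusted p = 0.0948, edgeR). *Tsc22d3*, which encodes the glucocorticoid-induced leucine zipper protein GILZ, went from 43.1 to 77.8 CPM (median 53.5) to 65.5 to 130 CPM (median 91.8), with a log2 difference of 0.71 (SE 0.16, adjusted p = 0.0948). With the animal number range in the fit, both were called, with adjusted p = 0.00705 for *Sgk1* (log2 difference 0.64) and adjusted p = 0.00823 for *Tsc22d3* (log2 difference 0.71). With the range in the fit and the 4 libraries left out, neither was called (adjusted p = 0.0675 for *Sgk1* and 0.192 for *Tsc22d3*, edgeR). DESeq2 called both without the range (adjusted p = 0.0228 for *Sgk1* and 0.0229 for *Tsc22d3*). Within the 3 ranges, the log2 differences were 0.60, 0.67 and 0.62 for *Sgk1* and 0.61, 0.65 and 1.03 for *Tsc22d3*.

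Other members of this list gave values in the same direction that did not pass the test. *Hif3a* had a log2 difference of 0.86 (adjusted p = 0.198), *Map3k6* of 0.65 (adjusted p = 0.122), *Arl4d* of 0.54 (adjusted p = 0.0948), *Arrdc2* of 0.50 (adjusted p = 0.133) and *Ddit4*, an inhibitor of mTOR signalling, of 0.29 (adjusted p = 0.101). *Fkbp5*, a co-chaperone of the glucocorticoid receptor, gave 0.19 (adjusted p = 0.325). The highest log2 value of the list, 1.22 for *Plin4*, had an SE of 0.53 and an adjusted p of 0.417. The receptor gene itself, *Nr3c1*, gave −0.12 (adjusted p = 0.185), and of 7 stress hormone receptor and CRH system genes tested, 2 were higher and none was called.

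Nearly all chaperone and endoplasmic reticulum stress genes were higher after the open field, with open field replicate 6 far above the rest for several. Of 23 tested, 22 were higher, 11 had an unadjusted p under 0.05 upward (47.8%) and none downward, the median log2 difference was 0.24 and none was called. *Hspa5*, the main chaperone of the endoplasmic reticulum, ran from 190.3 to 273 CPM in basal (median 199) and from 236 to 591 CPM in open field libraries (median 263). Open field replicate 6 alone reached 591 CPM, with the next library at 278 CPM, and the log2 difference was 0.49 (SE 0.18, adjusted p = 0.278). *Hspa1b*, an inducible heat shock protein gene that is near-identical to its neighbour *Hspa1a*, ran from 3.53 to 5.05 CPM and from 4.69 to 11.7 CPM, with the same replicate highest (log2 difference 0.56, adjusted p = 0.253). *Dnajb1* gave 0.40 (adjusted p = 0.109) and *Xbp1* gave 0.34 (adjusted p = 0.190). Without open field replicate 6, 19 of the 23 were higher, 10 had an unadjusted p under 0.05 upward and the median was 0.09.

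Among 21 clock genes tested, 16 were higher, 4 had an unadjusted p under 0.05 upward and 1 downward, and the median log2 difference was 0.11 with none called. *Per2* gave 0.51 (adjusted p = 0.270) and *Arntl*, whose product activates the *Per* genes, gave −0.19 (adjusted p = 0.309). These values became 16 higher, 2 with an unadjusted p under 0.05 upward and a median of 0.05 without the 4 libraries. Without basal replicate 3 the list had 2 called members, 10 with an unadjusted p under 0.05 upward (47.6%) and a median of 0.18. That fit called 87 genes higher over all genes tested, and 8.25% had an unadjusted p under 0.05 upward. The study exposed the mice in the earlier part of the light phase. The hour of each mouse is not given in the sources used here, and its part in these values was not tested.

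**Figure D4:**
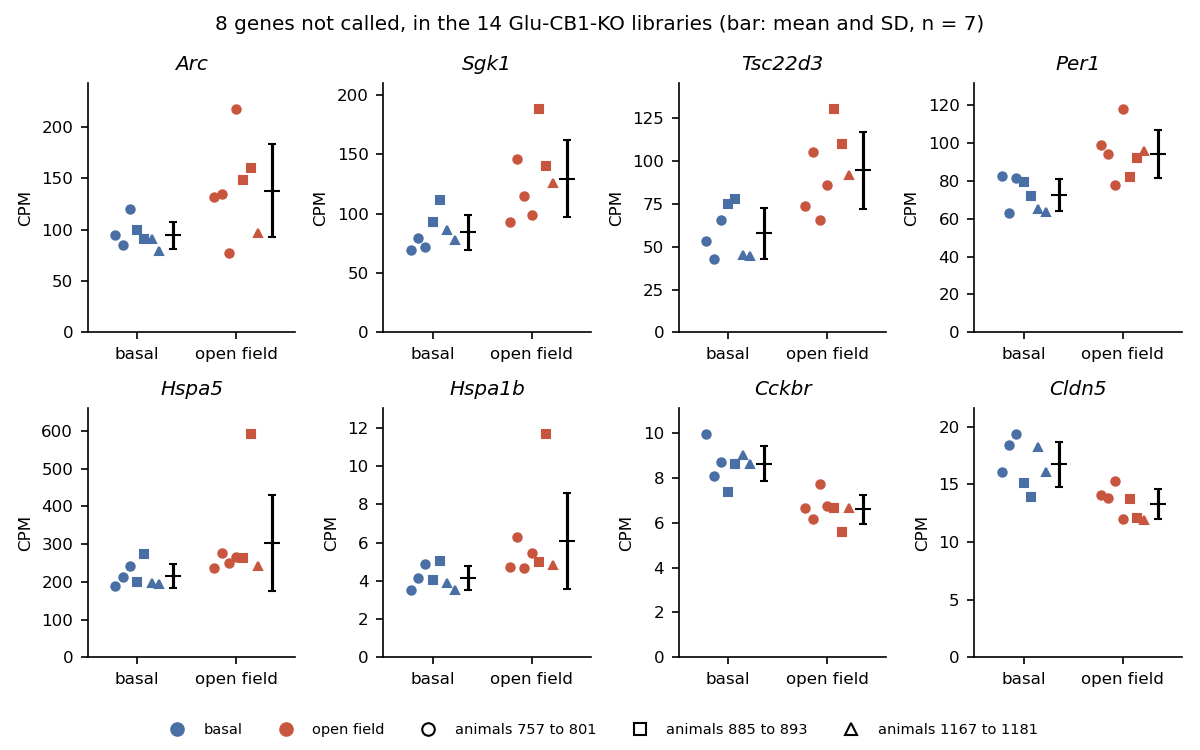
Level in CPM of *Arc*, *Sgk1*, *Tsc22d3*, *Per1*, *Hspa5*, *Hspa1b*, *Cckbr* and *Cldn5*, none of them called by edgeR without a covariate, in each basal and open field Glu-CB1-KO library, with mean ± SD; colour gives the state and the marker the animal number range. The groups overlap for each gene, and open field replicate 6 is far above the other libraries for *Hspa5* and *Hspa1b*.

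None of the genes in the lists of transmission and endocannabinoid genes was called by edgeR, and DESeq2 called 1 potassium channel subunit lower. Of 15 endocannabinoid system genes tested, 5 were higher and none had an unadjusted p under 0.05, with a median of −0.02. None of the 32 neuropeptide precursors, 17 GABA receptor genes or 21 interneuron markers tested had an unadjusted p under 0.05, but 2 neuropeptide precursors did, downward, without the 4 libraries. Of 32 glutamate receptor and auxiliary subunit genes tested, 5 were higher, 1 had an unadjusted p under 0.05 downward and the median was −0.04. Without the 4 libraries 15 of the 32 were higher, none had an unadjusted p under 0.05 and the median was −0.0056. *Grin2b*, a subunit of the NMDA receptor, gave a log2 difference of −0.43 with an SE of 0.31 (adjusted p = 0.699), and 0.01, −0.18 and −1.12 within the 3 animal number ranges. It ranged from 48.7 to 171 CPM among basal libraries alone. Potassium channel subunits numbered 43 tested, with 17 higher, 2 with an unadjusted p under 0.05 upward and 3 downward, and without the 4 libraries 23 were higher.

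The tissue held the markers of its labelled cells in both states. The summed level of 10 markers of CA1 pyramidal cells lay between 1199 and 1509 CPM in basal and between 1292 and 1474 CPM in open field libraries, with 4 higher and none called. The 11 markers of CA3 and CA2 cells summed to 604.9 to 803 CPM and 639.8 to 701 CPM, and those of dentate granule cells, whose tissue had been removed, to 328 to 634 CPM and 356 to 547 CPM. Of the 11 dentate markers 1 was higher, at a median of −0.11. Choroid plexus markers summed to 49.4 to 656.9 CPM in basal and 59.4 to 299 CPM in open field libraries. Glial and vascular markers were lower in most cases, with none called by edgeR without a covariate. DESeq2 called 1 oligodendrocyte, 1 astrocyte and 1 endothelial marker lower. Of 12 oligodendrocyte markers 1 was higher and 3 had an unadjusted p under 0.05 downward (median −0.09, summed level 3882 to 5034 CPM and 4007 to 4647 CPM). Of 12 microglial markers 1 was higher and 3 had an unadjusted p under 0.05 downward (median −0.04, summed level 465 to 547 CPM and 460.1 to 485 CPM), beside the fall of *P2ry13* by 0.34 on the log2 scale. Over all genes tested, 3.98% had an unadjusted p under 0.05 downward. The unadjusted p without the 4 libraries was under 0.05 downward for 4 oligodendrocyte markers and for none of the microglial markers, at medians of −0.09 for both lists. The microglial genes *Cx3cr1* and *P2ry12* gave log2 differences of −0.13 (adjusted p = 0.353) and −0.14 (adjusted p = 0.356). In bulk tissue, fewer cells of a type and less RNA per cell cannot be told apart, and the part of cell composition in these results was not tested.

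Over the most variable genes, the first principal component set the libraries apart by animal number range, with a small overlap, rather than by state. On the 500 genes with the highest variance, this component held 27.97% of the variance, and the libraries of the lowest range of animal numbers scored between −13.5 and −0.956 on it against −1.21 to 9.41 for the others. The test between states did not pass the threshold on this component (exact permutation test, two-sided, p = 0.377) or on the second, with 15.6% of the variance (exact permutation p = 0.212). They differed on the third, with 10.96% (exact permutation p = 0.00408, 0.0122 after adjustment over 3 components), which was examined after the data had been seen.

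With the animal number range as a covariate, edgeR called 44 genes (0.293% of those tested), 32 higher and 12 lower, including all 11 called without it. The other 33 had adjusted p-values between 0.0562 and 0.182 without the covariate, and 42 of the 44 were also called by DESeq2. Without the 4 libraries high in choroid plexus or pituitary transcripts the fit with the covariate called 4 genes, *Fos*, *Egr2*, *Errfi1* and *Fosb*, so the calls of the genes named below were lost there. The examples that follow were chosen after their values were seen. Beside *Sgk1* and *Tsc22d3*, those higher included *Klf15*, a glucocorticoid-responsive transcription factor (log2 difference without the covariate 0.42, adjusted p = 0.0243 with it), *Mc4r*, the melanocortin 4 receptor (0.41, adjusted p = 0.00562), and *Adipor2*, an adiponectin receptor (0.38, adjusted p = 0.00986). Genes of energy metabolism among them were *Prkab2*, a subunit of AMP-activated kinase (0.30, adjusted p = 0.0456), *Gpt2*, a mitochondrial aminotransferase (0.33, adjusted p = 0.0243), and *Ak4*, an adenylate kinase (0.32, adjusted p = 0.0314).

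Among those lower in that fit were *Sox2*, a transcription factor of glial and stem cells (log2 difference without the covariate −0.30, adjusted p = 0.0130 with it), and *Cckbr*, a receptor of cholecystokinin. *Cckbr* had 7.38 to 9.94 CPM in basal (median 8.63) and 5.59 to 7.72 CPM in open field libraries (median 6.64), and 6 of 7 open field libraries were below every basal one. Its log2 difference was −0.39 (adjusted p = 0.0314 with the covariate and 0.0684 without), at −0.38, −0.39 and −0.40 within the 3 ranges. *Creb5*, a CRE-binding factor, gave −0.70 without overlap between groups (adjusted p = 0.0381 with the covariate), *Fbxo32*, a ubiquitin ligase subunit, gave −0.38 (adjusted p = 0.0381), and *Cldn5*, a tight junction gene of endothelial cells, gave −0.33 (adjusted p = 0.0487).

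The same comparison in Glu-CB1-WT littermates asked whether the response differed when CB1 was present on glutamatergic neurons. The genotypes also differed in the level of *Neurod6*, which cannot be told apart from the loss of CB1 here. No difference between the genotypes passed the test, and the leading immediate early genes were higher in both. With 5 libraries a state, edgeR called 0 of 14991 genes in Glu-CB1-WT mice (0%), at a lowest adjusted p of 0.0825, and DESeq2 called 21. At an unadjusted p under 0.05 edgeR gave 830 genes (5.54%). The difference between the responses, Glu-CB1-KO minus Glu-CB1-WT, gave 0 of 15355 genes (0%) with edgeR and 0 with DESeq2. At an unadjusted p under 0.05 edgeR gave 379 (2.47%). All 11 genes called in Glu-CB1-KO mice differed in the same direction in Glu-CB1-WT mice, 8 of them at an unadjusted p under 0.05, and 6 of the 11 by less. Over the 14923 genes tested in both genotypes, whose comparisons share no library, Pearson's r of the log2 differences was 0.361 and Spearman's rho 0.340, given as a description across genes that are not independent.

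*Fos* in Glu-CB1-WT mice gave 2.04, 5.06, 3.03, 3.10 and 2.56 CPM in the basal state and 14.8, 12.3, 27.5, 10.4 and 4.70 CPM after the open field. Open field replicate 5 lay within the basal range, and the others were above it. The log2 difference was 2.13 (SE 0.39) in Glu-CB1-WT against 1.77 in Glu-CB1-KO mice, and the difference of −0.36 had an SE of 0.43 (edgeR adjusted p = 1.00). *Egr2* gave 0.894, 1.90, 0.637, 1.36 and 0.802 CPM in the basal state and 7.52, 6.90, 11.5, 6.58 and 2.15 CPM after the open field. Replicate 5 was again the lowest of the open field group, now above the basal libraries. Here the log2 difference was 2.62 in Glu-CB1-WT and 2.23 in Glu-CB1-KO mice (difference −0.39, SE 0.49). *Fosb* differed by −0.20 (SE 0.28) between the genotypes, *Egr1* by −0.22 (SE 0.21) and *Egr4* by −0.05 (SE 0.18). Without Glu-CB1-WT open field replicate 5, edgeR called 4 genes in Glu-CB1-WT mice. Of the 29 immediate early transcription factors tested, 25 were higher in Glu-CB1-WT mice, 17 at an unadjusted p under 0.05 upward (58.6%, against 3.09% of all genes) and 1 downward, with a median of 0.33. The log2 difference was the higher in Glu-CB1-KO mice for 5 of the 29, against 7619 of 15021 genes tested. None of the 29 differed between the responses at an unadjusted p under 0.05.

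**Figure D5:**
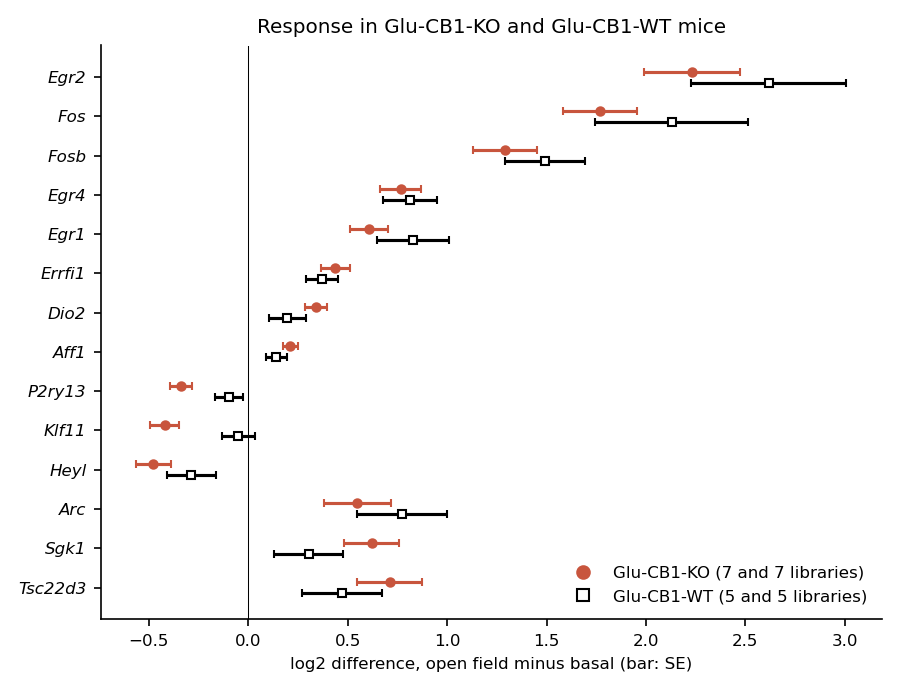
Log2 difference, open field minus basal, with bars of 1 SE, in Glu-CB1-KO mice (7 libraries a state) and Glu-CB1-WT mice (5 libraries a state), for the 11 genes called in Glu-CB1-KO mice and for *Arc*, *Sgk1* and *Tsc22d3*. The signs are the same in both genotypes for every gene shown, and *Klf11* is at −0.42 in Glu-CB1-KO and −0.05 in Glu-CB1-WT mice.

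Of the 11 genes, *Klf11* and *P2ry13*, which fell, had the lowest unadjusted p-values for a difference between genotypes. *Klf11* gave 6.33, 7.46, 5.94, 6.38 and 6.15 CPM in basal and 5.88, 5.78, 6.32, 6.19 and 6.98 CPM in open field Glu-CB1-WT libraries, which overlapped. Its log2 difference was −0.05 (SE 0.08) there, so that the responses differed by −0.37 (SE 0.11, edgeR adjusted p = 1.00). *P2ry13* gave −0.10 in Glu-CB1-WT mice and a difference of −0.24 (SE 0.09, adjusted p = 1.00). *Dio2* gave 0.20 (SE 0.09), with a difference of 0.14 (SE 0.11).

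Glucocorticoid-induced genes were higher in Glu-CB1-WT mice too, with 24 of 27, 8 at an unadjusted p under 0.05 upward and a median of 0.12. The log2 difference was the higher in Glu-CB1-KO mice for 22 of the 27, against 7619 of 15021 genes tested. No member of the list differed between genotypes even at an unadjusted p under 0.05. *Sgk1* differed between the responses by 0.32 (SE 0.24) and *Tsc22d3* by 0.24 (SE 0.28). In basal Glu-CB1-WT libraries *Sgk1* reached 143 CPM (median 74.9) and *Tsc22d3* 93.5 CPM (median 47.8), whereas *Fkbp5* reached 84.6 CPM (median 76.8). The part of such high basal values in the count of 22 was not tested. Of the chaperones, 20 of 23 were higher in Glu-CB1-WT mice, with a median of 0.12, and *Hspa1b* gave −0.07 there, with a difference of 0.62 (SE 0.25, adjusted p = 1.00). For oligodendrocyte markers and for microglial markers, 10 of 12 were higher in Glu-CB1-WT mice, and the log2 difference was the higher in Glu-CB1-KO mice for 0 of 12 of each. The responses differed at an unadjusted p under 0.05 for 1 oligodendrocyte and 2 microglial markers, against 365 of 15021 genes tested. Members of 1 list, like markers of 1 cell type, are not independent of each other, so these counts are a description.

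Set beside GABA-CB1-KO mice, in which CB1 was deleted from GABAergic neurons, the response of Glu-CB1-KO mice gave no gene that differed past the threshold. Of 15389 genes tested for the difference between the responses, edgeR called 0 (0%) and DESeq2 0, with 823 (5.35%) at an unadjusted p under 0.05 with edgeR. The 2 knockouts come from different lines, so line and deleted cell type cannot be told apart in this comparison. *Heyl* had the lowest unadjusted p of the 11 genes. Its response in GABA-CB1-KO mice was 0.01 on the log2 scale, and the difference from Glu-CB1-KO mice was −0.49 (SE 0.13, adjusted p = 0.919). *Klf11* gave −0.40 in GABA-CB1-KO mice, a difference of −0.03 (SE 0.11).

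For *Fos*, *Egr2*, *Fosb* and *Egr4*, the direction of this difference turned without 1 GABA-CB1-KO library. GABA-CB1-KO basal replicate 5 had 9.71 CPM of *Egr2* and 9.65 CPM of *Fos*, whereas the other basal libraries of that group reached at most 1.47 and 2.88 CPM. With it, *Fos* differed between the knockouts by 0.27 and *Egr2* by 0.59 on the log2 scale, and without it by −0.37 (SE 0.34) and −0.61 (SE 0.37). *Fosb* went from 0.28 to −0.17 and *Egr4* from 0.04 to −0.09, whereas *Egr1* was negative in both cases, at −0.13 and −0.29. The response of GABA-CB1-KO mice itself went from 1.49 to 2.14 for *Fos* (adjusted p = 0.272 with and 0.00795 without this library) and from 1.64 to 2.83 for *Egr2* (adjusted p = 0.315 and 2.48e-04). In neither case was any gene called in the difference between the knockouts.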

How the data were processed

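RNA of CA tissue was extracted with RNeasy columns, amplified with the single primer isothermal method and sequenced single-end. Reads were trimmed with bbduk, aligned to mm10 with STAR 2.6.0a and counted per gene by strand with featureCounts 1.6.2, per the study's methods and the submitters' processing notes. The authors deposited whole-number raw counts of 24421 genes by symbol, without normalization, and 4374 of these had no count in the 14 Glu-CB1-KO libraries. Counts of near-identical copies are uncertain, the reads carry no molecular identifiers, and trimming, alignment and counting were taken as deposited. In these libraries 17669 to 17934 genes had a count and TMM factors ran from 0.983 to 1.02. None of the 42 pairs of libraries within a group was close enough to be a duplicate (lowest chi-square per degree of freedom 3.66).

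Groups were taken from the labels. Differences were tested with edgeR 4.0.16 in R 4.3.3 (TMM, filterByExpr, glmQLFit and glmQLFTest), on the libraries of each comparison alone, and Benjamini-Hochberg adjusted p-values under 0.05 were called. The self-test used simulated data with known changes. Differences between responses were tested as interaction terms. CPM values are on the TMM-scaled library size within each comparison. Principal components used log2 CPM with a prior count of 2, and their scores an exact permutation test over 3432 splits. Alternatives were DESeq2 1.42.0, its size factors (RLE), other filters, the animal number range, the replicate block, wider fits and each library left out, and some were chosen after seeing the data. Figures were drawn with matplotlib 3.10.9 in Python 3.11.15. The comparison, its tests and the gene lists were chosen with earlier results of these data known. Genes named were *Cnr1*, *Neurod6*, *Arc*, the genes called and members of the lists, and further genes named with values were chosen after those were seen. Promoters came from RefSeq (GRCm38.p6), and *Egr1* and *Heyl* were not matched there.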

Additional observations from a re-analysis of the deposited data

Results flagged for a closer look

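Single libraries that stood far from the rest of their group were sought among the 66 genes named, with Dixon's test in 180 groups of values, and 19 (10.6%) were found. Chance gives about 1 in 20. No difference between responses passed the threshold.

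Of the 19, 6 were high values of Glu-CB1-KO open field replicate 6. *Hspa5* reached 591 CPM there (next library 278), *Hspa1a* 6.399 (4.09), *Hspa1b* 11.7 (6.31), *Dnajb1* 80.8 (59.4), *Xbp1* 106 (70.8) and *Ak4* 108 (93.7). All but *Ak4* belong to the chaperone and endoplasmic reticulum stress genes.

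In GABA-CB1-KO basal replicate 5, 5 activity-regulated genes were high. *Egr2* had 9.71 CPM (next library 1.47), *Fos* 9.65 (2.88), *Fosb* 9.07 (3.82), *Egr1* 151 (102) and *Errfi1* 62.2 (48.1).

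Glu-CB1-WT basal replicate 2 was high for *Egr4* at 6.83 CPM (next library 5.76) and *Klf11* at 7.46 (6.38). In basal Glu-CB1-KO libraries, *Fbxo32* had 27.1 CPM in replicate 2 (next library 21.7), *Prkab2* 79.9 in replicate 3 (70.3) and *Fosb* 8.12 in replicate 5 (6.39), and *Map3k6* was low at 1.14 in replicate 7 (next library 2.19). After the open field, *Neurod6* was high at 238 CPM in Glu-CB1-KO replicate 5 (next library 209.7) and *Per2* low at 50.8 in replicate 3 (next library 80.3). Why these libraries differ was not tested.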

How the results depend on the processing

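The number of genes called in Glu-CB1-KO mice, 11, became 172 with DESeq2, 44 with the animal number range in the fit, 47 and 181 with the 24 libraries of the line or all 48 in 1 fit and, among alternatives chosen after seeing the data, 207 with DESeq2 and the range and 2 without the 4 libraries high in choroid plexus or pituitary transcripts, where only 10 libraries remained, or 4 there with the range in the fit. It was 10 with RLE factors, 9 without the filter and 11 with at least 10 counts in every library. Leaving out 1 library gave 4 to 110 genes. In Glu-CB1-WT mice the count of 0 became 21 with DESeq2, 2 without the filter, 2 with the range, 4 with 24 libraries, 6 with 48 and 0 to 4 with 1 library left out. Neither difference between responses gave a call under any alternative run. Over all genes, the states differed in mean score on the second principal component (exact permutation p = 0.0157, 0.0472 after adjustment over 3 components). The third component had p = 0.0874 there (exact permutation, adjusted 0.131). Of the named genes, *Neurod6* and *Grin2b* changed sign without the 4 libraries, to 0.0034 and 9.83e-04 on the log2 scale, neither called. With the range in that fit *Neurod6*, *Grin2b* and *Bdnf* turned to 0.0038, 0.068 and 0.0089, none called. Over all named genes and alternatives, 1425 values kept direction and side of the threshold, 126 passed it and 94 no longer did. The cause of these changes was not tested.

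With the replicate number as a block (replicate block), 13 genes were called in Glu-CB1-KO and 2 in Glu-CB1-WT mice. The numbers do not mark pairs, since same-numbered libraries had correlations of their deviations from −0.236 to 0.449, 3 of 7 over 0.1, and 3 of 7 correlated best with their own number. Genes under the filter (9400 of 24421) could not be tested.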

Other observations

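Lists that belong in no comparison above gave the following counts in the Glu-CB1-KO response, with no member called by edgeR without a covariate. Of 12 endothelial markers, 2 were higher and 2 had an unadjusted p under 0.05 downward, at a median log2 difference of −0.12. *Kdr*, a receptor of vascular endothelial growth factor, gave −0.34 (edgeR adjusted p = 0.207). Of 12 markers of mural cells and fibroblasts, 3 were higher (median −0.08), and of 8 markers of oligodendrocyte precursors, 2 (median −0.06). Of 12 astrocyte markers, 5 were higher, and *Sox9*, a glial transcription factor, gave −0.25 (edgeR adjusted p = 0.110). *Opalin*, a myelin gene, gave −0.45 (edgeR adjusted p = 0.162). Markers of the thalamus (6 of 10 higher), of the subiculum and cortex (2 of 8 higher) and nuclear and ribosomal RNA (4 of 6 higher) showed medians of 0.02, −0.11 and 0.03. Without the 4 Glu-CB1-KO libraries high in choroid plexus or pituitary transcripts, 4 of the endothelial markers (median −0.04), 7 of the astrocyte markers and 2 of the nuclear and ribosomal RNA genes were higher. Of 10 blood cell markers only 1 was expressed strongly enough to be tested, and it was lower. *Kcna4*, a potassium channel subunit, lay between 29.8 and 47.6 CPM in basal and between 28.04 and 35.7 CPM in open field libraries (log2 difference −0.34, edgeR adjusted p = 0.109).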
